A study of Sus scrofa with 6 samples.

Results

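A set of 4 porcine genes tied to the actin cytoskeleton was followed in endometrial epithelial cells given seminal exosomes. They are ANKRD1 and THBS1, which are targets of the coactivator YAP, TAGLN, a target of serum response factor (SRF), and ENC1, which encodes an actin-binding protein. The rows were found by their gene symbol, 4 of 10915 genes with values in the deposited table. All 4 had been picked because of how they differed between the exosome and the control libraries. That difference is therefore given here as a description and without a test.

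The cells were a primary culture from the uteri of slaughtered pigs, used at passage 3 and grown on collagen in medium with 10% fetal bovine serum, which both groups shared. The exosome group (3 libraries) received 10 µg per well of vesicles for 48 h. These had been precipitated with a commercial reagent from the sperm-rich fraction of boar seminal fluid. The control group (3 libraries) received no exosomes, and the labels name no mock precipitate. How many uteri the libraries stand for is not given in the labels, so the spread between libraries may be technical.

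YAP and its relative TAZ are transcription coactivators that the Hippo kinases keep out of the nucleus. When cells spread or pull on their matrix, YAP and TAZ enter the nucleus and bind TEAD factors at genes such as CCN1, CCN2 and ANKRD1. SRF works beside them with the MRTF coactivators, which monomeric actin holds in the cytoplasm until filaments form, and it drives genes of actin and its binding proteins. Both routes read the state of the cytoskeleton, which the uterine epithelium rearranges when it becomes receptive to an embryo.

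Levels are given as FPKM, fragment counts divided by transcript length and by the size of the library, which can be compared between genes. The FPKM sums ran from 721273 to 732922 for controls and from 690258 to 711250 for exosome libraries, and the sequencing depth is unknown. Exosome replicate 2 stood apart from its group. Its log2 ratios had an SD of 0.203 and 0.201 to control replicates 2 and 3, and of 0.244 and 0.251 to exosome replicates 1 and 3. The main results are therefore given with and without that library. Of the epithelial markers, 7 of 9 were found, each at a mean of at least 180.2 FPKM, led by keratins KRT19, KRT8 and KRT18. The endothelial (1 of 6) and immune markers (3 of 6) that were found summed to at most 1.96 and 11.9 FPKM in any library.

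ANKRD1 (ENSSSCG00000010461), an ankyrin repeat protein of the nucleus and of muscle sarcomeres, was the most abundant of the 4. Its locus lies on chromosome 14 from 102603777 to 102612857 (Sscrofa11.1, RefSeq gene table). It was at 708.2, 637.0 and 667.8 FPKM in the control and at 941.2, 826.2 and 903.2 FPKM in the exosome libraries. All 3 exosome libraries lay above all 3 controls, and the lowest of them was 1.17 times the highest control. The means were 671.0 ± 35.7 and 890.2 ± 58.6 FPKM (SD, n = 3 per group), and the log2 change was 0.41 (SE 0.06). Log2 changes here and below are differences in mean log2(FPKM + 1), exosome minus control. RPP30 overlaps 2270 bases of this locus in the RefSeq annotation; it encodes a subunit of ribonuclease P. RPP30 was far lower, at 16.5 ± 0.832 and 17.8 ± 0.985 FPKM, and its groups overlapped. In a bulk culture, a change in the share of cells that express a gene and a change in its RNA per cell cannot be told apart.

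THBS1 (ENSSSCG00000004789) encodes thrombospondin 1, a secreted matrix glycoprotein that binds the receptor CD47 and can release TGF-beta from its latent form. It lies on chromosome 1 from 131728781 to 131746098. The control libraries were at 390.9, 490.6 and 484.2 FPKM and the exosome libraries at 550.3, 628.0 and 501.0 FPKM. The groups did not overlap, but only just. The lowest exosome library was 1.02 times the highest control, and control replicate 1 sat well below the other controls. Means were 455.2 ± 55.8 and 559.8 ± 64.0 FPKM (SD, n = 3), with a log2 change of 0.30 and an SE of 0.11. Leaving out control replicate 1 gave 0.19 and leaving out exosome replicate 2 gave 0.21, so these libraries carried much of it.

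TAGLN (ENSSSCG00000015073) encodes transgelin, also called SM22 alpha, an actin-crosslinking protein of the calponin family that is abundant in smooth muscle. It lies on chromosome 9 from 44561756 to 44567385. It was at 127.2, 130.4 and 140.9 FPKM in the control and at 78.5, 140.1 and 92.5 FPKM in the exosome libraries. TAGLN was thus lower than every control in exosome replicates 1 and 3 and within the control range in replicate 2. The groups overlapped. Means were 132.8 ± 7.14 and 103.7 ± 32.3 FPKM (SD, n = 3), and the log2 change was -0.40 (SE 0.18). Leaving out exosome replicate 2 gave -0.63 and leaving out exosome replicate 1 gave -0.22.

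ENC1 (ENSSSCG00000014072), a Kelch repeat protein that binds actin and can act as an adaptor of the CUL3 ubiquitin ligase, lies on chromosome 2 from 83678518 to 83691812. The control libraries were at 120.5, 121.8 and 133.1 FPKM and the exosome libraries at 182.8, 172.8 and 173.2 FPKM. Here the gap between the groups was wider than the spread inside either of them. The lowest exosome library was 1.30 times the highest control. Means were 125.1 ± 6.91 and 176.3 ± 5.67 FPKM (SD, n = 3), with a log2 change of 0.49 and an SE of 0.05. Leaving out any library, or both libraries of a number, moved it only between 0.44 and 0.55. ENC1 was the member on which exosome replicate 2 bore least.

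**Figure D1:**
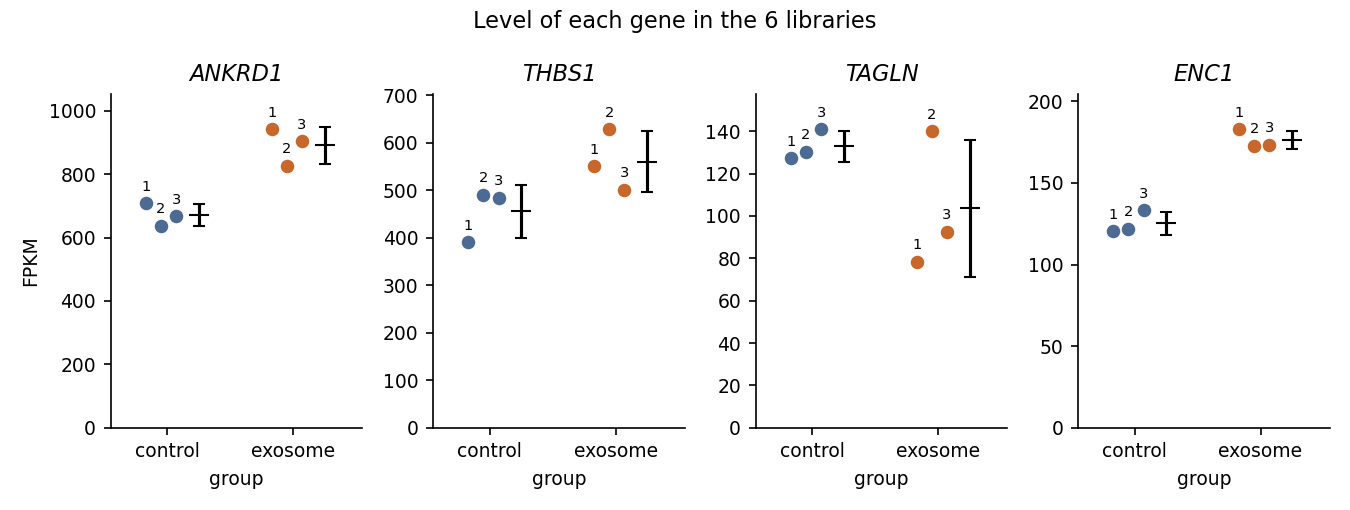
FPKM of ANKRD1, THBS1, TAGLN and ENC1 (vertical axes from 0) in 3 control and 3 exosome libraries, each point labelled with its replicate number and bars giving the mean ± SD. Exosome libraries lie above all controls for ANKRD1, THBS1 and ENC1, while for TAGLN exosome replicate 2 (140.1 FPKM) lies among the controls and replicates 1 and 3 (78.5 and 92.5 FPKM) lie below them.

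The contrast that chose the genes gives the frame for these values. Among 10846 genes tested with limma, 0 passed an adjusted p of 0.05 (0%). At an unadjusted p under 0.05, 549 genes were higher (5.06%) and 813 lower (7.50%). The groups did not overlap with exosome higher in 8.29% of genes and with exosome lower in 10.4%. ANKRD1, THBS1 and ENC1 are in the first of these sets because of how they were chosen, and nothing is read from that count. By log2 change they stood above 99.2%, 98.0% and 99.6% of genes tested, and TAGLN above 1.33%.

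Exosome replicate 2 took a different place for each gene. Relative to the control mean it reached 65.6% of the mean log2 shift of exosome replicates 1 and 3 for ANKRD1 and 91.7% for ENC1. For THBS1 it lay beyond them, at 221%, and was the highest of the 6 libraries. For TAGLN it lay on the other side of the control mean, at -12.3%. The same share was taken over 1402 genes whose mean in exosome replicates 1 and 3 lay over 0.25 log2 from the control mean. Its median was 22.3%. THBS1, at 0.21, is outside that set. ANKRD1, THBS1, TAGLN and ENC1 were chosen on all 3 exosome libraries, so their shares are a description.

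Levels in the control group ran from ANKRD1 through THBS1 to TAGLN and ENC1. ANKRD1 and THBS1 did not overlap in either group. TAGLN (127.2 to 140.9 FPKM) and ENC1 (120.5 to 133.1 FPKM) overlapped in the control, so these neighbours were not apart beyond their spread. In the exosome group ENC1 lay above TAGLN in every library. By mean FPKM over all libraries, ANKRD1 stood above 98.7% of genes tested, THBS1 above 98.1%, ENC1 above 93.5% and TAGLN above 91.6%.

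Within a group the 4 genes varied by very different amounts. The SD within groups on the log2 scale was 0.06 for ENC1, 0.09 for ANKRD1, 0.17 for THBS1 and 0.31 for TAGLN. The share of genes tested with a smaller SD was 25.3%, 44.0%, 83.7% and 96.9% in the same order. For TAGLN this spread sat in the exosome group, where its coefficient of variation was 31.2% against 5.38% in the control. For THBS1 it was alike in both groups, at 12.3% for controls and 11.4% with exosomes. ENC1 had 5.52% and 3.22%, and ANKRD1 5.32% and 6.58%.

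**Figure D2:**
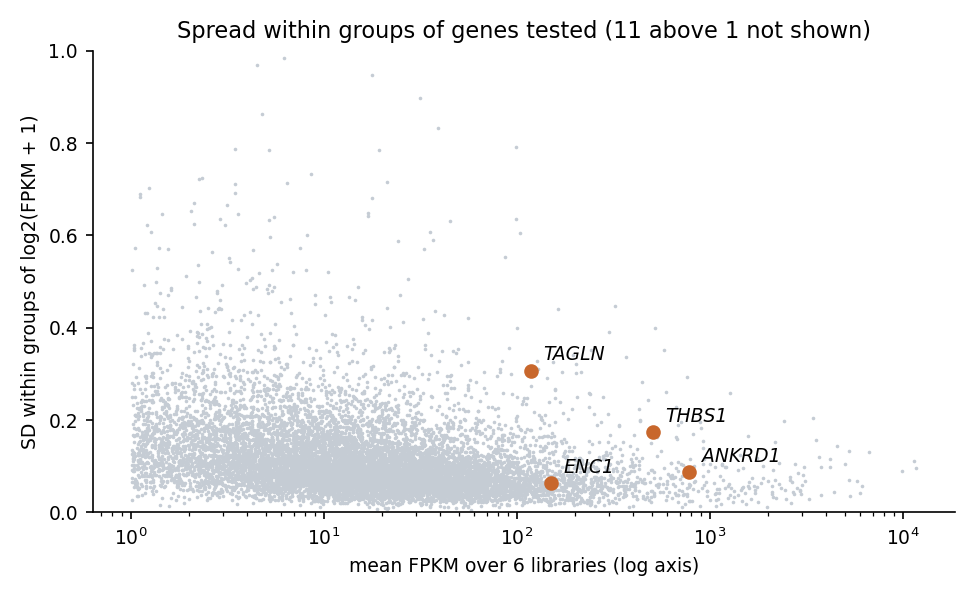
SD within groups of log2(FPKM + 1) against the mean FPKM over 6 libraries (log axis) for the genes tested, with the 4 genes marked in orange. TAGLN (SD 0.31) and THBS1 (0.17) lie above most genes, ENC1 (0.06) and ANKRD1 (0.09) lie in the bulk of them, and 11 genes with an SD above 1 are outside the plot.

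Ratios between genes in the same library are untouched by a single scaling factor per library, though quantile normalization can change them. ENC1 over TAGLN was 0.947, 0.934 and 0.945 in the controls, and 2.33, 1.23 and 1.87 in the exosome libraries. The control values were nearly identical, and every exosome value lay above them. ANKRD1 over CYR61, the older symbol of the YAP target CCN1, was 1.61, 1.40 and 1.52 in the controls and 2.54, 1.80 and 2.16 with exosomes. These groups also did not overlap. ANKRD1 over CTGF, the older symbol of the YAP target CCN2, was 4.10, 3.52 and 3.59 in the controls and 5.37, 4.00 and 4.83 with exosomes, and here exosome replicate 2 lay below control replicate 1. ANKRD1 over THBS1 was 1.81, 1.30 and 1.38 in the controls and 1.71, 1.32 and 1.80 with exosomes, so those groups overlapped throughout. Of the ratios of ANKRD1 to other YAP targets computed, the groups were therefore apart for CYR61 and overlapped for CTGF and THBS1. TAGLN over its close relative TAGLN2 was 0.240, 0.247 and 0.261 in the controls and 0.161, 0.261 and 0.199 with exosomes, with exosome replicate 2 level with the highest control. No ratio was tested, since each holds a gene chosen on this contrast.

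**Figure D3:**
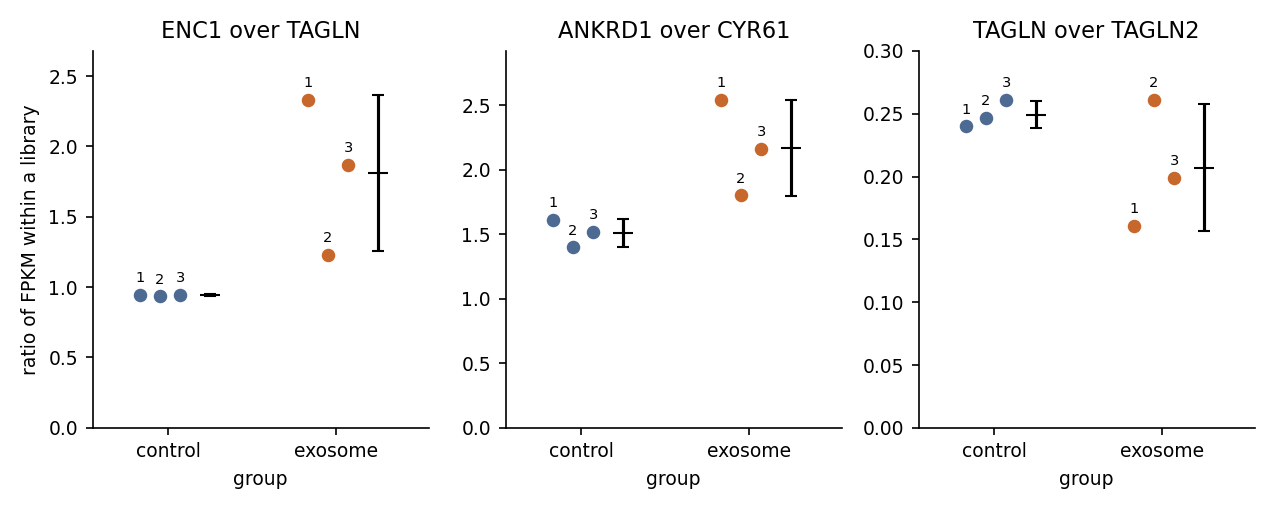
Ratios of FPKM within a library for ENC1 over TAGLN, ANKRD1 over CYR61 and TAGLN over TAGLN2, with replicate numbers and the mean ± SD of 3 libraries per group. ENC1 over TAGLN is near 0.942 in all controls and between 1.23 and 2.33 in the exosome libraries, while TAGLN over TAGLN2 overlaps between groups through exosome replicate 2.

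Other targets of YAP and TEAD had log2 changes from -0.15 to 0.17. Those of ANKRD1 and THBS1 were larger, but both genes had been picked for their difference, so nothing is read from that. The change of TGFB2, -0.13, had an SE of 0.64, so it was not shown to be near 0. Of 21 further targets 14 were tested, and 0 passed in limma, with 0 in either direction also at an unadjusted p under 0.05 (5.06% and 7.50% over all genes). Their median log2 change was -0.03, beside -0.0023 over all genes tested. With every library scaled to the same FPKM sum it was 0.02, beside 0.044 over all genes, and AMOTL2 was then higher at an unadjusted p under 0.05 (10.0% over all genes). CYR61 (CCN1), a matricellular protein and common readout of YAP, was at 440.2, 454.9 and 439.9 FPKM in the control and at 370.7, 459.7 and 418.4 FPKM with exosomes. Its exosome libraries lay on both sides of the controls (log2 change -0.10, SE 0.07). F3, the tissue factor that starts coagulation, was at 1146 ± 56.9 and 1158 ± 101 FPKM. IGFBP3, a carrier of insulin-like growth factors, was at 268.4 ± 1.22 and 258.6 ± 23.9 FPKM (SD, n = 3 each). CTGF (CCN2), picked with its values known, stood at 179.9 ± 6.65 and 189.6 ± 15.9 FPKM. AMOTL2, a scaffold that holds YAP at junctions, was at 52.7 ± 0.284 and 55.4 ± 1.10 FPKM (log2 change 0.07), and its groups did not overlap. PTPN14, a phosphatase that restrains YAP, and NUAK2, a kinase of the AMPK family, had log2 changes of 0.17 and -0.15. These 2 and AMOTL2 had the smallest p of the list, with adjusted p-values from 0.537 to 0.554 in limma.

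Genes of the Hippo pathway itself gave a median log2 change of 0.00 over 26 tested, and 0 passed in limma. At an unadjusted p under 0.05, 2 were higher (5.06% over all genes) and 0 lower (7.50%). These were VGLL3, a cofactor of TEAD, at 9.19 ± 0.767 and 11.8 ± 0.654 FPKM (log2 change 0.33, adjusted p = 0.234), and FRMD6, a FERM domain protein upstream of the kinases, at 24.3 ± 0.393 and 28.6 ± 1.82 FPKM (log2 change 0.22, adjusted p = 0.270). In both genes every exosome library lay above every control. So it was in 5 of the 26 Hippo genes (8.29% over all genes), and in 2 every exosome library lay below (10.4%). AMOTL2 and PTPN14, among these 5, are also in the list of YAP and TEAD targets. With the same FPKM sum 4 were higher at an unadjusted p under 0.05 (10.0% over all genes), WWC2 and AMOTL2 besides VGLL3 and FRMD6. WWC2, a relative of the scaffold KIBRA, came next (log2 change 0.14). The most abundant members, VGLL1, MAP4K4 and NF2, had log2 changes of -0.09, -0.07 and -0.01. Of genes chosen after their values were seen, YAP1 was at 23.1 ± 1.28 and 21.9 ± 0.830 FPKM, and WWTR1, which encodes TAZ, at 10.1 ± 0.875 and 9.45 ± 0.781 FPKM. TEAD3 and TEAD4 were at log2 changes of -0.09 and 0.00.

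Without rescaling of the libraries, most targets of SRF and MRTF had a negative log2 change. The list was chosen with earlier results of these data known, so nothing is read from the side it shares with TAGLN. Of 19 tested, 16 had a negative log2 change (50.8% over all genes) and 3 a positive one (49.2%). Signs were not counted under other scalings. The median was -0.07 (-0.0023 over all genes). It was -0.05 with quantile normalization (0.0047) and -0.02 with the same FPKM sum (0.044). In limma 0 passed, and at an unadjusted p under 0.05, 4 were lower (7.50% over all genes) and 1 higher (5.06%). The lower count moved with the scaling and with the variance model. It was 4 with median ratio scaling (6.91% over all genes), 1 with quantile normalization (6.51%) and 0 with the same FPKM sum (3.87%). It was 2 without the intensity trend (6.87%) and 7 with array weights (11.5%). The 4 lower genes were the calponins CNN2 and CNN3, CSRP1, a LIM protein of actin bundles, and ZYX, which encodes zyxin of focal adhesions and was chosen after its values were seen. CNN2 was at 240.8 ± 3.44 and 213.6 ± 17.8 FPKM (log2 change -0.18, SE 0.06). CSRP1 was at 138.9 ± 3.99 and 124.1 ± 7.70 FPKM, and CNN3 at 571.0 ± 18.4 and 520.8 ± 27.4 FPKM. The higher gene was TPM1, a tropomyosin, also chosen after its values were seen, at 107.6 ± 3.77 and 124.5 ± 15.3 FPKM. The abundant TPM4 and MYH9 (non-muscle myosin) were at log2 changes of -0.06 and 0.04. None of these changes was as large as that of TAGLN, but TAGLN had been picked for its difference.

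Without exosome replicate 2, 297 genes passed in limma (2.74%), 93 higher (0.858%) and 204 lower (1.88%). That library was singled out because it lay nearer to control replicates 2 and 3 than to its own group, so leaving it out favours larger differences, and the calls below hold for that subset only. Among the 19 SRF and MRTF targets 3 were then lower past the threshold and 0 higher. They were CNN2 (log2 change -0.24, adjusted p = 0.0450), ZYX (-0.26, 0.0427) and MYL9, the regulatory light chain of myosin (-0.26, 0.0427). The median of that list was then -0.12. At an unadjusted p under 0.05, 8 of its genes were lower and 0 higher (11.8% and 10.2% over all genes). Among YAP and TEAD targets and Hippo genes 0 passed in either direction without that library (at an unadjusted p under 0.05, 2 targets were lower, and 2 Hippo genes were higher and 3 lower, beside 10.2% higher and 11.8% lower over all genes). Their medians were -0.07 and -0.01. In the lists of thrombospondins, Kelch genes and ANKRD1 relatives described below, 0 passed without that library. Their medians were then 0.02, -0.03 and -0.08, in the same order. At an unadjusted p under 0.05 they had 1, 0 and 0 genes higher (10.2% over all genes) and 1, 4 and 1 lower (11.8%).

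**Figure D4:**
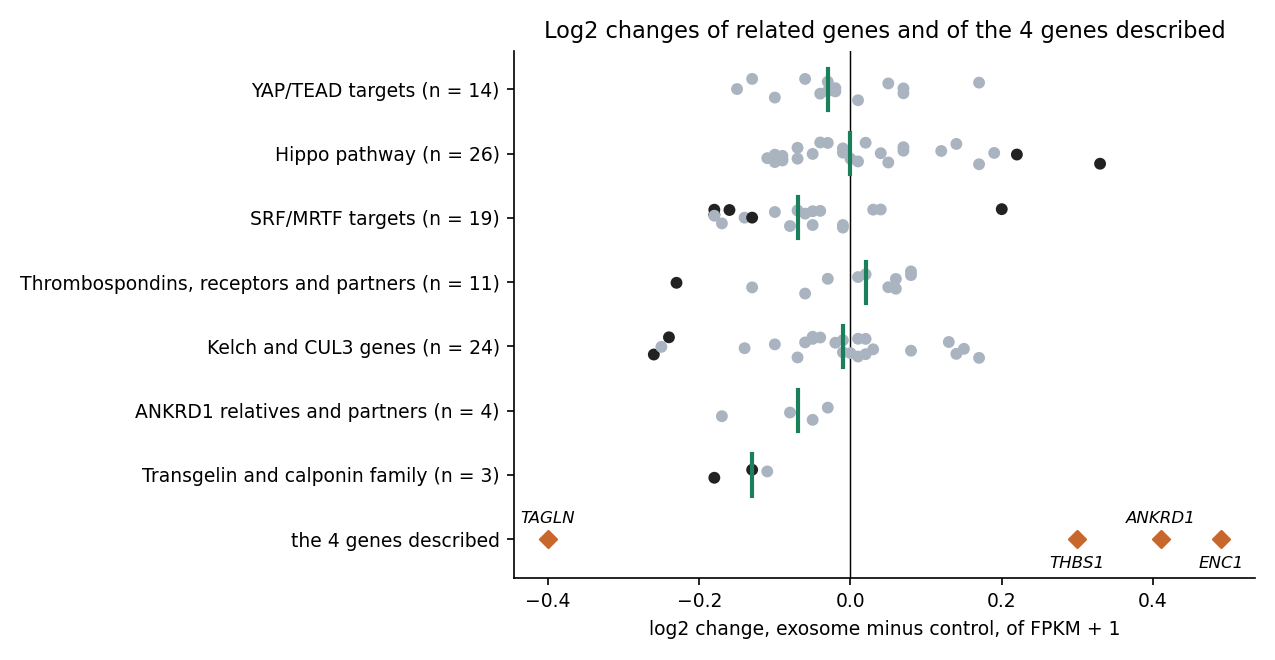
Log2 changes (exosome minus control, of FPKM + 1) of the genes tested in 7 lists, 1 point per gene, black at an unadjusted limma p under 0.05 and grey otherwise, with the list median as a green bar and the 4 genes described as orange diamonds. YAP and TEAD targets lie between -0.15 and 0.17 around a median of -0.03, whereas ANKRD1 and ENC1 lie at 0.41 and 0.49 and TAGLN at -0.40. The 4 genes described had been picked for their difference.

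Some regulators of actin stood beside these genes. PFN2, a profilin that binds monomeric actin, was at 20.1, 16.3 and 18.4 FPKM in the control and 27.0, 23.1 and 26.6 FPKM with exosomes (log2 change 0.47, SE 0.09, limma adjusted p = 0.186). Its groups did not overlap. It was past the threshold in the subset without exosome replicate 2, with the same limit (log2 change 0.53, limma adjusted p = 0.0336). The far more abundant profilin PFN1 was at 1165 ± 38.4 and 1096 ± 77.7 FPKM. CFL1, the actin-severing cofilin, was at 2734 ± 50.6 and 2567 ± 14.9 FPKM (log2 change -0.09, limma adjusted p = 0.395, and -0.01 with quantile normalization). SRF itself, picked with its values known, stood at 22.7 ± 0.993 and 21.8 ± 1.29 FPKM.

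Relatives and partners of the 4 genes gave values beside theirs. In the transgelin and calponin family TAGLN2 was at 532.7 ± 6.94 and 496.0 ± 36.5 FPKM (log2 change -0.11, or -0.04 with quantile normalization), so TAGLN was the less abundant transgelin. Its difference was the larger, but TAGLN had been picked for that difference. All 3 members tested (TAGLN2, CNN2 and CNN3) had negative log2 changes, with a median of -0.13. CNN2 and CNN3 are the same genes that were counted among the SRF and MRTF targets above. At an unadjusted p under 0.05, 2 were lower, against 7.50% over all genes, but 0 were with quantile normalization (6.51%) or the same FPKM sum (3.87%). In limma 0 passed with all libraries, and 1 (CNN2) was lower past the threshold in the subset without exosome replicate 2 (1.88% over all genes).

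Among thrombospondins, their receptors and partners, 11 were tested and 0 passed in limma, with a median log2 change of 0.02, or 0.08 with the same FPKM sum (0.044 over all genes). At an unadjusted p under 0.05, 0 were higher (5.06% over all genes) and 1 was lower (7.50%). That gene was TGFB1, the cytokine that thrombospondin 1 can activate, at 5.11 ± 0.279 and 4.22 ± 0.309 FPKM (log2 change -0.23, adjusted p = 0.336). The tally turned round with the same FPKM sum, where 0 were lower (3.87%) and 1, the integrin ITGA3, was higher (10.0%). With quantile normalization ITGA3 was higher (6.00%) and TGFB1 lower (6.51%). Without rescaling the integrins ITGA3 and ITGB1 were at log2 changes of 0.08 and 0.06. The chaperone CALR and the syndecan SDC4 were at 0.02 and -0.13. THBS3, a relative of THBS1, was at 12.8 ± 0.323 and 12.5 ± 1.37 FPKM and the receptor CD47 at 169.3 ± 4.71 and 179.5 ± 12.2 FPKM, both chosen after their values were seen.

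With ENC1 in mind 24 genes were tested, called Kelch genes below. They are Kelch, BTB and CUL3 genes, with NFE2L2 and SQSTM1 from outside these families. In limma 0 of the 24 passed. Their median log2 change was -0.01, or 0.03 with the same FPKM sum (0.044 over all genes). At an unadjusted p under 0.05, 0 were higher (5.06% over all genes) and 2 lower (7.50%), KBTBD6 and NFE2L2. With the same FPKM sum 1 was higher (KLHL21, 10.0% over all genes) and the same 2 were lower (3.87%). NFE2L2 encodes NRF2, a redox transcription factor that CUL3 and a Kelch protein degrade. It was at 107.1, 115.2 and 113.8 FPKM in the control and 93.6, 94.9 and 95.6 FPKM with exosomes (log2 change -0.24, SE 0.05, adjusted p = 0.189). All its exosome libraries lay below the controls, as in 3 of the 24 genes (10.4% over all genes). In another 3, KLHL8, KLHL21 and KBTBD8, all exosome libraries lay above the controls, the side of ENC1 (8.29% over all genes). KBTBD6 was at 6.49 ± 0.588 and 5.24 ± 0.307 FPKM (log2 change -0.26, adjusted p = 0.313), and KLHL24 at a log2 change of -0.25. SQSTM1, the autophagy receptor p62, and IVNS1ABP were at -0.01 and -0.05. KLHL25, the closest relative of ENC1 in name (ENC2), was at 3.48 ± 0.126 and 3.52 ± 0.891 FPKM. ANKRD1 had 4 relatives and partners tested, of which 0 passed in limma or lay at an unadjusted p under 0.05. All 4 had a negative log2 change (50.8% over all genes), with a median of -0.07. YBX1, a cold shock domain protein that binds ANKRD1, was at 819.9 ± 16.1 and 800.2 ± 11.2 FPKM, CASQ2, a calcium-binding protein of muscle, had a log2 change of -0.17, and ANKRD23, of the same ankyrin family, was at 1.19 ± 0.283 and 1.11 ± 0.137 FPKM.

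Summed markers of stromal and of epithelial cells were lower in all 3 exosome libraries than in any control. The 6 stromal markers found of 10 summed to 2817 to 3074 FPKM in the control and 2303 to 2520 FPKM with exosomes. Only CD90 (THY1) of the 6 lay below the controls in every exosome library (10.4% over all genes), and it made up most of that sum, at 2328 ± 93.7 and 1849 ± 69.4 FPKM, and in exosome replicate 2 it was 1880 FPKM, below every control, while TAGLN in that library was not. Without CD90, a sum added after its values were seen, the stromal markers overlapped, at 591.3, 664.6 and 708.2 FPKM in the control and 534.4, 629.7 and 623.2 FPKM with exosomes. Most of that sum was VIM, at 556.7 ± 52.4 and 505.3 ± 63.6 FPKM. COL1A1 varied widely, at 2.48, 30.0 and 14.7 FPKM in the control and 20.4, 6.27 and 0.887 FPKM with exosomes. FN1 (fibronectin) was at 30.1 ± 1.32 and 32.8 ± 8.63 FPKM. The 7 epithelial markers summed to 9203 to 9532 and 8133 to 8941 FPKM. Of these KRT8, MUC1, CLDN4 and ELF3 lay below the controls in every exosome library (10.4% over all genes), while KRT18, KRT19 and TACSTD1 overlapped. TACSTD1 (EPCAM) was at 345.8 ± 12.5 and 357.9 ± 15.3 FPKM. KDR, the 1 endothelial marker found, also lay below the controls in every exosome library, at a low level of 1.58 ± 0.354 and 1.07 ± 0.0983 FPKM. Of 8 smooth muscle markers 1 was found, SMTN (smoothelin), at 35.7, 34.2 and 35.0 FPKM in the control and 33.0, 40.0 and 31.3 FPKM with exosomes. As with TAGLN, its highest exosome library was replicate 2 and replicates 1 and 3 lay below the controls. ACTA2, DES and MYH11 were not analysed here. The part of these cells in the TAGLN values was not tested.

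The nearest measured genes along the chromosome were read as a view of each locus, chosen after the members' values were seen. PCSK7, a proprotein convertase separated from TAGLN by 187 bases, was at 59.5 ± 0.366 and 55.2 ± 2.32 FPKM. SIDT2, a lysosomal membrane protein 2038 bases to the other side, was at 14.4, 15.7 and 14.8 FPKM in the control and 12.1, 13.1 and 13.0 FPKM with exosomes (log2 change -0.22, adjusted p = 0.284). In both neighbours all exosome libraries lay below the controls, replicate 2 included, unlike TAGLN. The same held for 10.4% of all genes tested. ARHGEF28, the nearest measured gene at lower coordinates from ENC1, was at 27.2 ± 2.82 and 26.0 ± 2.66 FPKM. The measured genes nearest to ANKRD1 without overlap (KIF20B and PCGF5) had log2 changes of 0.11 and -0.26. Those nearest to THBS1 (SRP14 and FAM98B) had 0.16 and 0.23.

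For each of the 4 genes, the 3 named genes with the most similar course over the 6 libraries were found by Pearson's r of log2(FPKM + 1), among 9285 named genes. The libraries fall into 2 groups of 3, so r here ranks genes and carries no test. Above r = 0.95 there were 72 genes for ANKRD1, 38 for THBS1, 150 for TAGLN and 32 for ENC1. Nearest to ANKRD1 were AQP9, a water and glycerol channel (r = 0.994), SORL1, a sorting receptor (0.993), and PBDC1 (0.993). AQP9 was far less abundant, at 2.43 ± 0.181 and 5.02 ± 0.805 FPKM, with a larger log2 change of 0.80. Nearest to THBS1 were AK3L1, an adenylate kinase (0.989), ARHGAP5, a GTPase-activating protein (0.986), and EEA1, an early endosome tether (0.985). These shared the low control replicate 1 and the high exosome replicate 2, as in AK3L1 at 39.5 FPKM and 53.8 FPKM.

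Nearest to TAGLN were PALMD, the membrane-associated protein palmdelphin (r = 0.997), PTPRU, a receptor phosphatase (0.996), and MFSD2A, a lipid transporter (0.995). PALMD was at 74.0, 76.8 and 81.0 FPKM in the control and 47.4, 77.9 and 55.4 FPKM with exosomes. In all 3, exosome replicate 2 lay at the control level or above and the other exosome libraries lay below it. Nearest to ENC1 were XPOT, the exporter of tRNA (0.993), USP31, a deubiquitinase (0.989), and EPB41L2, a band 4.1 protein of the membrane skeleton (0.987). EPB41L2 was at 13.7 ± 0.349 and 17.5 ± 0.384 FPKM (log2 change 0.32), with no overlap between groups.

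**Figure D5:**
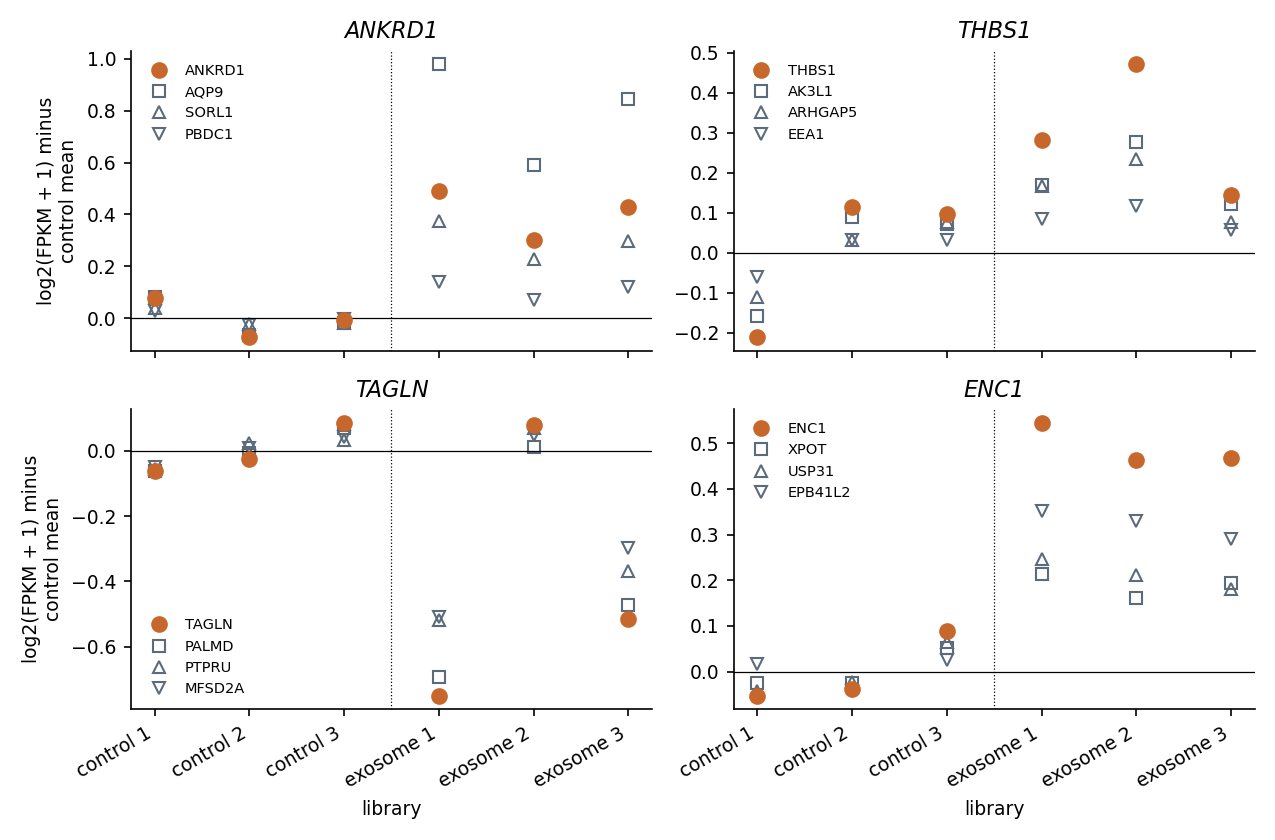
Log2(FPKM + 1) minus the control mean in each library for each of the 4 genes (filled circles) and the 3 named genes with the highest Pearson's r to it (open symbols). TAGLN and its 3 nearest genes lie low in exosome replicates 1 and 3 and near the control mean in replicate 2, while THBS1 and its nearest genes are highest in exosome replicate 2.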

How the data were processed

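Reads from a stranded mRNA kit were processed with bcl2fastq 1.8.4, TopHat and Cufflinks on Sscrofa11.1, per the submitters' processing notes. Other versions, the annotation, filters and strand settings were not stated. The authors' deposited unit was read as FPKM, from Cufflinks and the values, as no header names it. The table held no 0, its lowest value was 0.0882, and its 69 genes averaging less than 1 FPKM showed no steps of whole reads, so depth is unknown. All genes averaging 1 FPKM or more were tested on log2(FPKM + 1) with limma 3.58.1 in R 4.3.3 (moderated, with intensity trend, two-sided, 4 residual degrees of freedom, Benjamini-Hochberg over all genes, threshold 0.05), checked on simulated data. The members, 8 lists and 5 marker lists were chosen with earlier results of these data known; 1 list and some single genes are not reported here. Of 197 list symbols 134 were matched by deposited or older symbol, or by the reference name of rows without one. Named were the members, 3 genes per list by smallest p and 3 by highest mean, the members' relatives, and the 3 genes most correlated with each member. Alternatives were other pseudocounts (0.1, 0.5), filters, scalings, variance models, a replicate block and left-out libraries. Figures used Python 3.11.15 and matplotlib 3.10.9.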

Additional observations from a re-analysis of the deposited data

How the results depend on the processing

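The direction of ANKRD1, THBS1, TAGLN and ENC1 held under all 19 alternatives, and none moved by more than its SD within groups. Leaving out libraries gave log2 changes from 0.37 to 0.46 for ANKRD1, 0.19 to 0.42 for THBS1, -0.65 to -0.22 for TAGLN and 0.44 to 0.55 for ENC1. Whether the replicate numbers pair the libraries is not given in the labels. Deviations of same-numbered libraries correlated at 0.16, 0.14 and -0.07, and those of differently numbered ones at -0.27 to 0.17. With 3 libraries per group these values cannot settle it. With the number as a replicate block 0 genes passed, an unadjusted p under 0.05 was reached by 517 higher and 812 lower genes, and ENC1 had a log2 change of 0.49. Genes past the adjusted threshold numbered 0 to 297 over left-out libraries (297 without exosome replicate 2 and 58 when control replicate 2 was left out with it) and 15 with array weights. At an unadjusted p under 0.05, left-out libraries gave 257 to 1106 higher and 388 to 1280 lower, array weights 939 and 1247, and the same FPKM sum 1090 and 420, so 72.2% of these calls were higher in place of 40.3%. With the same FPKM sum the list medians were 0.08 for thrombospondins, 0.03 for Kelch genes and -0.03 for ANKRD1 relatives, beside 0.044 over all genes. Array weights gave -0.04 for Kelch genes and -0.11 for ANKRD1 relatives, and a filter at 5 FPKM gave -0.05 for Kelch genes. Over left-out libraries the median of Kelch genes ran from -0.04 to 0.02 and of ANKRD1 relatives from -0.12 to 0.00. The cause of these shifts was not tested. The search for promoter motifs, with its alternative of 1 strand, and the comparison of proteins were not run. Unknown depth leaves counting error unmeasured.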
